A study of Mus musculus with 4 samples.

Results

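The regions described here are promoters of coding genes at which open chromatin was found in every library of the series. Peaks of the 4 deposited peak lists that shared 1 bp or more were merged into 70744 regions. A region was kept when it held a peak in all 4 libraries, when its midpoint lay between 1000 bp upstream and 200 bp downstream of the transcription start site (TSS) of a RefSeq coding transcript (NM accession) on mm10, and when no other coding gene on the other strand had its TSS within 1000 bp. This left 6068 promoters of 5918 genes, out of 15199 regions called in all 4 libraries. The members were chosen by the peak calls of these same libraries, so that the presence of a peak in each library is given as a description and was not tested. The libraries are ATAC-seq libraries, made by letting the transposase Tn5 insert adapters where chromatin is accessible, of large peritoneal macrophages (LPMs) sorted from the peritoneal cavity of C57BL/6 mice 9 weeks old, with 40000 cells per library. Both groups carry floxed alleles of Rxra and Rxrb, which encode the retinoid X receptors RXRα and RXRβ. The LysMCre+ Rxrab fl/fl group also carries Cre under the LysM promoter, a driver active across the myeloid lineage and not in LPMs alone, and the Rxrab fl/fl group does not. Each genotype has 2 libraries, which the labels number 1 and 3 for Rxrab fl/fl and 1 and 2 for LysMCre+ Rxrab fl/fl. The labels put all 4 in the same library batch and do not state that they came from separate mice, so that p-values measure the spread between these libraries only. The reporting notes of the study state that ATAC-seq samples that did not cluster with their group were left out, so the likeness of libraries within a group was in part selected.

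A promoter is the stretch of DNA around a TSS on which RNA polymerase II and the general transcription factors assemble. Most promoters of mammalian housekeeping genes lie in CpG islands, stretches rich in G and C in which CpG dinucleotides have been kept, and are depleted of nucleosomes in nearly every cell type. Promoters of genes used by few cell types more often lack an island. Macrophage-specific transcription is known to depend largely on distal enhancers bound by PU.1 (Spi1), C/EBP and AP-1 factors, whereas housekeeping promoters carry short elements read by SP/KLF, NFY, ETS, NRF1 and YY1 factors.

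The sequences of a few of these promoters are printed to show what the letters of an open promoter look like. Each is read from the RefSeq genome GRCm38.p6 (mm10) on the strand of the gene, from 120 bases before the TSS to base 30 of the transcript. Capitals mark matches, on either strand, to the patterns of under 10 letters whose spelling and frequencies are given further on. Wdr19 and Rbm4 hold CCAAT boxes, Eci1 holds a GC box and a YY1 pattern just after its TSS, Pafah2 holds a ZNF143/THAP11 pattern, and Lgals3bp and Id3, which hold none of the patterns in this window, are promoters at which the genotypes differed on 1 of the measures described below. In Rbm4 the first capitals are a C/EBP and a CCAAT match that overlap.
Wdr19 (chr5:65199576-65199725, + strand): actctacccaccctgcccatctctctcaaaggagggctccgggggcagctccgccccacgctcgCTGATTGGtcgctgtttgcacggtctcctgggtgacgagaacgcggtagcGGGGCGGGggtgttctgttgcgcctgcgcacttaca
Rbm4 (chr19:4793980-4794129, - strand): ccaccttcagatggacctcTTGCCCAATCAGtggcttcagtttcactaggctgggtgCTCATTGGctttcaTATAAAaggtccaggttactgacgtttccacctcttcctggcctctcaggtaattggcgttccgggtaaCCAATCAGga
Eci1 (chr17:24426563-24426712, + strand): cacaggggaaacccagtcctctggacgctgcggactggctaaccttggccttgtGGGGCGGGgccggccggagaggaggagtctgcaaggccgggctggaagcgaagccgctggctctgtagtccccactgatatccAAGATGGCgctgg
Pafah2 (chr4:134396200-134396349, + strand): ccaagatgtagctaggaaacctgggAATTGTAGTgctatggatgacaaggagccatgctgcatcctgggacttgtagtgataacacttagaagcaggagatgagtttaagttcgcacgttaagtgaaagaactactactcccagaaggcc
Lgals3bp (chr11:118401930-118402079, - strand): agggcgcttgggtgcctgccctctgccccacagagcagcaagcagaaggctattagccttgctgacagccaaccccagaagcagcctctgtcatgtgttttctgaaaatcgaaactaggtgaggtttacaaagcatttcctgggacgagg
Id3 (chr4:136143702-136143851, + strand): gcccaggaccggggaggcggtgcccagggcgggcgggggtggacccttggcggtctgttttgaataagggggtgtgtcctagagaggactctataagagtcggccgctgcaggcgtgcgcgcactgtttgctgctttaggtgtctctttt

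Single sites are printed from the promoters that had the highest accessibility among those holding each pattern, as windows of 30 bases on the strand of the gene with the matching letters in capitals. The matches of ETS and PU.1 share the core GGAAGT and differ in the letters before it, so that the same 8 letters cannot match both.
Kifap3, NRF1 (chr1:163779576-163779605, + strand): ctgtcgcgtgaGCGCATGCgccttgcggag
Pitrm1, NFY CCAAT box (chr13:6548075-6548104, + strand): attccacctgtCCAATGAGagtctcgagac
Pitrm1, GC box (chr13:6548099-6548128, + strand): cgagaccgttcCCCGCCCCgcgtcgtgcgt
Cldnd1, GC box (chr16:58727973-58728002, + strand): gagttatggagGGGGCGGGctctgcaggga
Ppp1r16a, ETS (chr15:76671631-76671660, + strand): gacacctcgggCCGGAAGTgtcgcgttgcc
Nckap1l, PU.1 (chr15:103453642-103453671, + strand): acaaccagaaaGAGGAAGTctcctctgctg
Arfgap2, PU.1 (chr2:91265044-91265073, + strand): caggaactcgtGAGGAAGTttgggccagtc
Efcab14, CRE (chr4:115737686-115737715, + strand): gccctcctgcgTGACGTCAccaaggggcgc
Eci1, YY1 (chr17:24426689-24426718, + strand): cactgatatccAAGATGGCgctggctgctg
Wdr19, E-box (chr5:65199559-65199588, + strand): tccacctccatCACGTGACtctacccaccc
Adam10, CGCG element (chr9:70678879-70678908, + strand): aggggtgcggcCTCGCGAGtgtattgggtg
Rangap1, ZNF143/THAP11 (chr15:81730024-81730053, - strand): tgcatcatgggAATTGTAGTtcatcgcgcg
Hinfp, E2F (chr9:44305766-44305795, - strand): ctccgggacgaTTCCCGCCtcttccgtgtt
Msmo1, AP-1 (chr8:64733688-64733717, - strand): gcttcgttgactTGAGTCAcacgctgccgg
Gcdh, C/EBP (chr8:84893868-84893897, - strand): gaagaacccgcTTGCAAAAccaggcagctg
Casp8ap2, GATA (chr4:32615359-32615388, + strand): gtgctttgcgtCTTATCTaattggttgtcg
Rbm4, TATA box (chr19:4794041-4794070, - strand): cattggctttcaTATAAAaggtccaggtta

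The libraries differed in how deep the peak lists reach. The Rxrab fl/fl libraries 1 and 3 had 38048 and 16097 peaks, the LysMCre+ ones (replicates 1 and 2) had 65421 and 55581, and the promoters called in all 4 made up 16.7, 39.5, 9.61 and 11.3% of them. The lowest local background of a library, which follows its number of tags, was 1.97 and 1.06 tags in Rxrab fl/fl against 1.33 and 1.08 tags in LysMCre+ Rxrab fl/fl. The read depth itself is not given in the lists. Rxrab fl/fl replicate 3 had the shallowest list and decided most of the membership: of 2572 promoters called in 3 libraries, 2555 lacked a peak in this library alone. These 2555 had median fold enrichments of 7.10, 10.1 and 7.80 in the remaining Rxrab fl/fl library and in the LysMCre+ pair, below the 16.5, 16.2 and 12.7 of the promoters called in all 4. Without this library, 8626 promoters would meet the rule, against 6075 to 6211 without any of the others. A further 1158 and 1095 promoters were called in 2 libraries and in 1. By gene, 29.6% of the 20021 coding genes on the autosomes had a promoter called in all 4 libraries, 11.9% were called in 3, 4.25% in 2, 3.46% in 1, 3.96% had a divergent promoter called in all 4, and 46.9% were called in none. The share of genes with such a promoter ranged from 22.9% on chromosome 7 to 34% on chromosome 8. A gene called in none had no region placed at it by the window rule. A peak over its promoter that was centred outside the window, or nearer to another gene, was not counted. The sex chromosomes carry no peaks in the lists and are not covered.

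Accessibility was measured at the summit of each peak in 2 ways. The fold enrichment is the ratio of the tags piled up at the summit to the local background, as the peak caller gave it. The summit pileup is the number of tags itself, computed back from these ratios together with their p-values. In fold enrichment, the promoters had medians of 16.5 (replicate 1) and 8.94 (replicate 3) in Rxrab fl/fl against 16.2 (replicate 1) and 12.7 (replicate 2) in LysMCre+ Rxrab fl/fl, the order kept for all values below. The 7543 distal regions called in all 4 libraries, which lie over 1000 bp from any coding TSS, had medians of 13 and 6.60 against 14.3 and 11.5. Promoters thus lay above distal regions in every library, by a ratio of 1.28 and 1.36 in Rxrab fl/fl against 1.13 and 1.10 in LysMCre+ Rxrab fl/fl. On the log2 scale this gap was 0.35 and 0.44 in Rxrab fl/fl against 0.18 and 0.14 in LysMCre+ Rxrab fl/fl. The genotypes did not overlap, with a mean difference of −0.23, and a two-sided exact permutation test over the 4 libraries gave p = 0.333, the smallest that 2 against 2 allows. On the pileup, the medians of the promoters were 124, 26, 118 and 72 tags and those of distal regions 78, 17, 84 and 59 tags in the same order of libraries. The pileup gap was 0.67 and 0.61 in Rxrab fl/fl against 0.49 and 0.29 in LysMCre+ Rxrab fl/fl on the log2 scale, again without overlap.

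**Figure D1:**
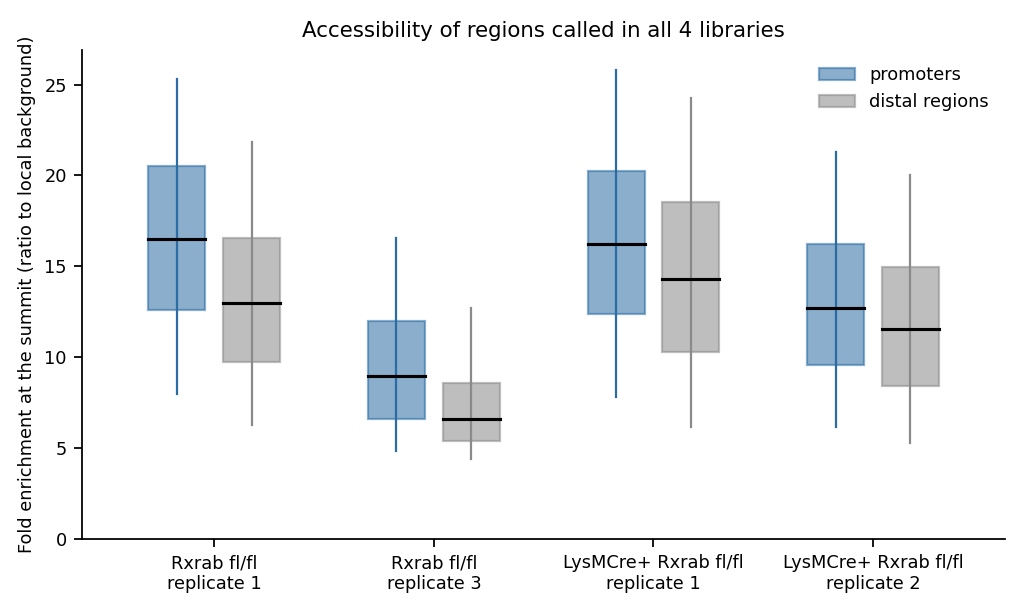
Fold enrichment at the summit of the promoters and of the distal regions called in all 4 libraries, by library, on a linear axis. Boxes run from the lower to the upper quartile with a line at the median, and whiskers reach the 5th and 95th percentiles. The promoter median lies above the distal median in each library, most in Rxrab fl/fl replicate 3 (a ratio of 1.36) and least in LysMCre+ Rxrab fl/fl replicate 2 (1.10).

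The summits at these promoters lay mostly just upstream of the TSS. The rule keeps midpoints up to 1000 bp upstream but only 200 bp downstream, so this place was in part set by the rule. The widths are those of peaks merged over the 4 libraries. The merged regions had a median width of 727 bp, with quartiles of 598 and 882 bp and a range of 275 to 2272 bp. The strongest summit lay a median of 56 bp upstream of the TSS, with quartiles of 126 and 6 bp upstream, and 77.6% of summits were upstream. Each library by itself gave the same place, with median positions of −57 and −58 bp in Rxrab fl/fl and of −54 and −57 bp in LysMCre+ Rxrab fl/fl, and 59.9 to 63.5% of its summits fell within 100 bp of the TSS. Summits of the same promoter lay a median of 15 to 29 bp apart between libraries. Of the 5918 genes, 5771 had 1 such region, 144 had 2 and 3 had 3 or more. Across the 6068 promoters, the Pearson r of log2 fold enrichment was 0.759 between the Rxrab fl/fl libraries, of 0.904 between the LysMCre+ Rxrab fl/fl libraries and of 0.575 to 0.837 between genotypes. For the log2 pileup these were 0.925, 0.923 and 0.752 to 0.856. These correlations are across promoters, which share libraries and base composition, and are given as a description.

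The mean fold enrichment over the 4 libraries had a median of 13.1 and ran from 3.38 to 29.3. The highest was at Kifap3 (chromosome 1, 163779301 to 163779842), which encodes a subunit of the kinesin-2 motor, with 33.7 and 24.6 in Rxrab fl/fl against 32.3 and 27.6 in LysMCre+ Rxrab fl/fl. The next were Tmem161a, Cldnd1 and Nckap1l, with means of 26.8, 26.5 and 26.5. Nckap1l (HEM1), the blood cell subunit of the WAVE actin-regulating complex, had 31.2 and 17.4 against 31.9 and 28.3. Pitrm1, a mitochondrial peptidase, Msmo1, a sterol oxidase of cholesterol synthesis, Gcdh, an enzyme of lysine breakdown, and Msantd4 had means of 26.4, 26.4, 26.4 and 26.1. Replicate 3 of Rxrab fl/fl was the lowest of the 4 libraries at each of these 8 promoters. At none of them did the genotypes differ beyond the spread between libraries on either measure (adjusted p of 0.0957 or more, limma).

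The lowest fold enrichments were at Zbtb7a (mean 3.38), Sgk1 (3.54), Spred2 (3.68) and Bbc3 (3.70). These encode a transcriptional repressor, a glucocorticoid-induced kinase, an inhibitor of MAP kinase signalling and the p53 target PUMA. Low fold enrichment did not mean few tags. The pileup at Zbtb7a was 105 and 27 tags in Rxrab fl/fl against 189 and 101 in LysMCre+ Rxrab fl/fl, above the promoter median in 3 of the 4 libraries, over a local background of 27.1, 6.16, 62.4 and 33.8 tags. The median background over all promoters was 6.64 and 1.98 tags in Rxrab fl/fl against 6.46 and 4.8 in LysMCre+ Rxrab fl/fl. A low fold enrichment at these promoters thus went with a high background, and only Sgk1 was also below the median pileup in all 4 libraries, with 43 and 16 against 44 and 36 tags.

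The members were unevenly spread over gene families. Promoters called in all 4 libraries were found for 25 of 34 E2 ubiquitin-conjugating enzymes (73.5%), 43 of 73 cytosolic ribosomal proteins (58.9%), 29 of 53 translation initiation factors (54.7%), 30 of 55 Rab GTPases (54.5%), 24 of 44 general transcription factors and TAFs (54.5%) and 28 of 52 splicing factors (53.8%). Proteasome subunits had 24 of 50 (48.0%), RNA polymerase subunits 14 of 28 and Mediator subunits 13 of 26. Of 35 complex I subunits, 15 (42.9%) had a member and a further 8 had a divergent promoter called in all 4, which the rule leaves out. Mitochondrial ribosomal proteins had 29 of 75 (38.7%), with 17 called in none. V-type ATPase subunits had 9 of 24 (37.5%), with 9 called in none. Zinc finger genes of the Zfp series had 166 of 386 (43.0%) and solute carriers 99 of 362 (27.3%), the latter close to the 29.6% of all genes. Families known for use in few cell types had few or none. These were 2 of 33 interleukins (Il6 and Il23a), 4 of 92 potassium channels, 2 of 42 collagens (Col5a1 and Col23a1), 2 of 39 HOX genes, 0 of 112 keratins and keratin-associated proteins, 0 of 42 beta-defensins, 0 of 351 vomeronasal receptors and 0 of 1101 olfactory receptors. Of the olfactory receptors, 1097 were called in no library by the rule. Histone genes, which lie in clusters with near-identical copies, had 10 of 39 and are uncertain, as reads of low mapping quality were removed.

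Within the families, levels differed between members. Polr3k, a subunit of RNA polymerase III, had 28.3 and 17.7 in Rxrab fl/fl against 30.8 and 26 in LysMCre+ Rxrab fl/fl. Rpl27 of the large ribosomal subunit had 28.0 and 18.1 against 27.7 and 22.1, and Psma6 of the proteasome core had 26.2 and 16.0 against 25.1 and 24.1. All 3 were among the highest of their family. The members of the cytosolic ribosomal proteins ranged from a mean of 5.97 to 23.6, those of the Rab GTPases from 6.63 to 22.0 and those of the Zfp series from 4.78 to 23.2. Il23a, with 4.10 and 4.30 against 6.49 and 6.43, was the lower of the interleukin promoters, and Il6 had 10.2 and 6.13 against 13.6 and 13.3. Both cytokine genes are inducible in macrophages.

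The labelled cell type was checked against lists of marker genes. These lists were chosen with earlier results of these data known. Of 27 transcription factors of the macrophage lineage, 20 had a promoter called in all 4 libraries, among them Spi1, Cebpa, Cebpb, Irf8, Maf, Runx1 and Zeb2, 5 were called in 3 libraries, and Fli1 and Nfe2l2 had no promoter peak by the rule. Their share of 74.1% was above the 29.6% of all genes. It was close to the 73.5% of E2 ubiquitin-conjugating enzymes and the 76.5% of nuclear receptors and coregulators (26 of 34), so it does not mark macrophages by itself. Of 24 genes known from LPMs, 11 were members: Gata6, the factor that defines LPMs, Timd4, Icam2, Adgre1 (F4/80), Alox15, Garnl3, Thbs1, F5, F10, Fn1 and Ltbp1. A further 4 of the list (Cd5l, Naip1, Selp and Serpinb2) were called in 3 libraries, and 7 in none, among them Csf1r and Itga6. The study singled out some of the list, such as Gata6, Thbs1, Naip1 and Serpinb2, on these samples. Of 20 genes of small peritoneal and monocyte-derived macrophages, Irf4 and H2-Aa were members, 6 were called in 3 libraries and 9 in 1 or 2. Of 27 markers of lymphocytes, granulocytes, mast cells and mesothelium, 0 were members, S100a8 and Csf3r were called in 3 libraries, Klrb1c in 2, and 24, including Cd3e, Cd79a, Mpo and Msln, in none. Genes of the lysosome and autophagy had 18 of 28 members and immediate early and stress genes 26 of 30. Vsig4, Lamp2 and Tfe3 lie on the X chromosome and could not be placed.

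**Figure D2:**
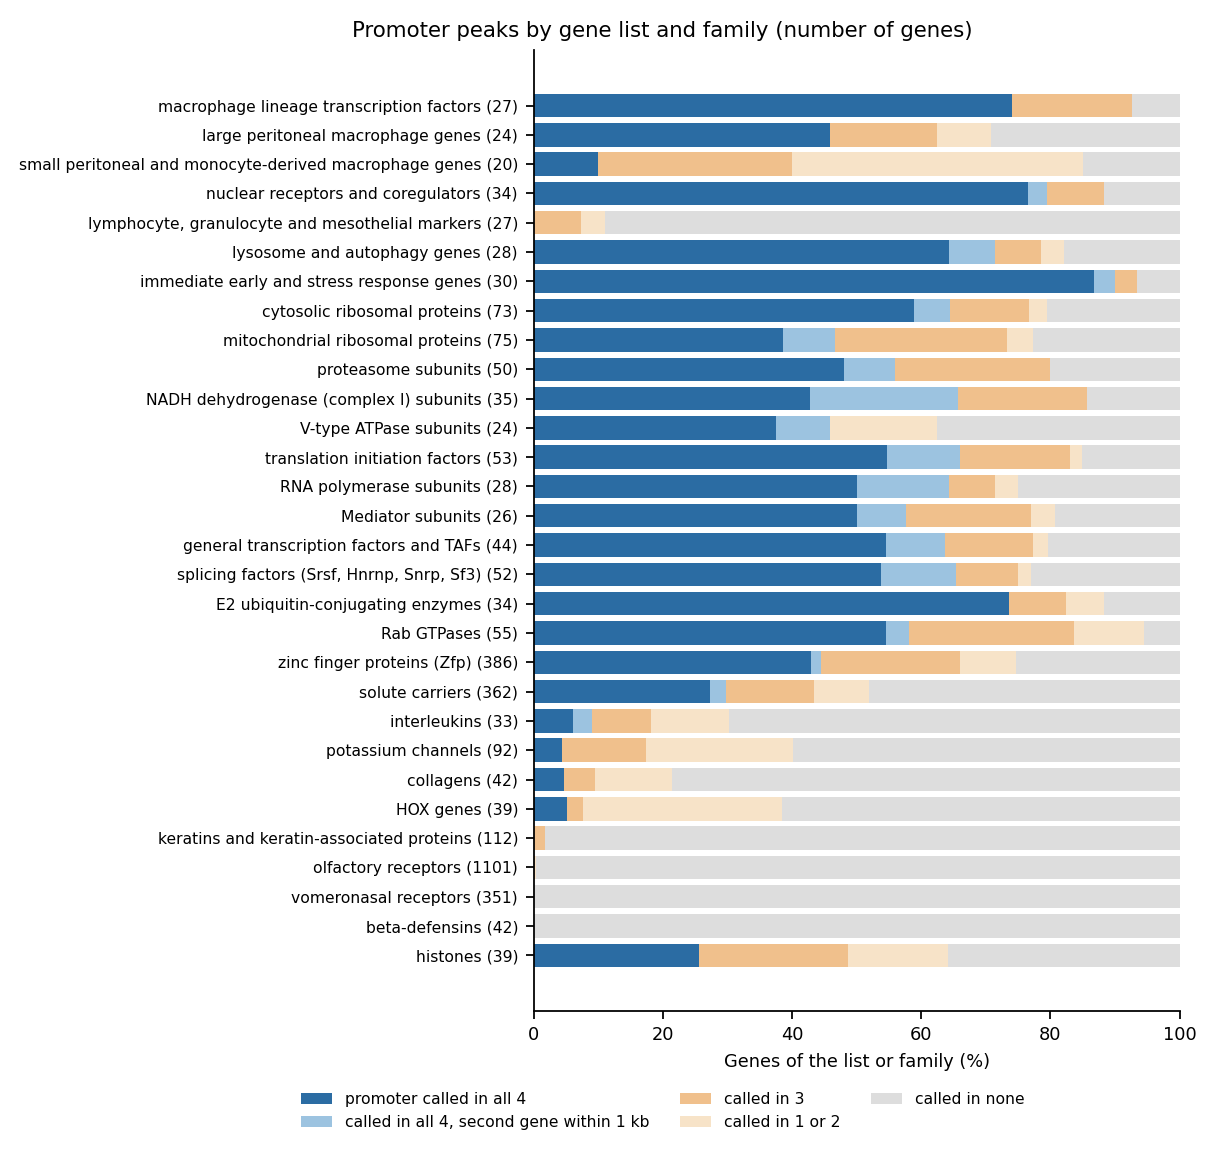
Share of the genes of each list or family by the state of the promoter, in percent, with the number of genes in brackets. Colours separate promoters called in all 4 libraries, divergent promoters called in all 4, and promoters called in 3, in 1 or 2 and in 0 libraries. Immediate early genes, nuclear receptors, macrophage transcription factors and E2 enzymes have the largest shares called in all 4, and keratins and olfactory and vomeronasal receptors have none.

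The promoters were rich in G, C and CpG. In windows of 501 bp around the strongest summit, they had a median GC content of 63.5% and a ratio of observed to expected CpG of 0.814, against 49.1% and 0.251 in the distal regions. With a GC content past 50% and a CpG ratio past 0.6 called CpG-rich, 5114 promoters (84.3%) were CpG-rich against 8.01% of the distal regions. Centred on the TSS with 1 promoter per gene, 87.5% of the members were CpG-rich, compared with 50.0% of all 18246 coding promoters without a divergent neighbour. Of the 8527 such promoters called in no library by the rule, which can include open ones, 19.4% were CpG-rich. The remaining 954 members (15.7%) were CpG-poor. These were not the weaker ones throughout. Tmem161a, Nckap1l, Gcdh and Msantd4, all CpG-poor, had the ranks 2, 4, 7 and 8 of 6068 in level, with CpG ratios of 0.571, 0.304, 0.432 and 0.598. Of the promoters of macrophage transcription factors, 18 of 22 were CpG-rich, and of those of LPM genes 4 of 11. Among these genes, Adgre1 had a ratio of 0.0663, Timd4 of 0.171, F10 of 0.277 and Spi1 of 0.347, all CpG-poor. Gata6 had 0.654 and Cebpa 0.834 and were CpG-rich.

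The sequence patterns of the promoters differed from those of distal regions. The patterns searched on both strands, within 100 bp of the strongest summit, were GGGGCGGG (the SP/KLF GC box), CCACACCC (a KLF box), CCAATNAG (the NFY or CCAAT box), CCGGAAGT (ETS), GAGGAAGT (PU.1), GCGCATGC (NRF1), TGACGTCA (CRE), AAGATGGC (YY1), CACGTGAC (the E-box), CTCGCGAG (the palindromic CGCG element), ACTACAATT (ZNF143/THAP11), TTCCCGCC (E2F), TGANTCA (AP-1), TTGCNNAA (C/EBP), AGATAAG for the family of GATA factors and TATAAA for the TATA box, with longer patterns for CTCF, ISRE, DR1 and DR5. Matches of different patterns were allowed to overlap. A match describes letters and does not show that a factor binds.

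The GC box was the most frequent pattern, present in 30.4% of the promoters (95% Wilson interval 29.2 to 31.5, for counting error only) against 4.11% of distal regions. The CCAAT box was present in 11.9% against 3.69% of distal regions, ETS in 7.61% against 0.849%, NRF1 in 3.89% against 0.835%, CRE in 3.16% against 1.07%, YY1 in 3.26% against 0.782%, the E-box in 3.63% against 1.27%, E2F in 3.53% against 0.636%, the CGCG element in 1.53% against 0.106% and ZNF143/THAP11 in 0.461% against 0.0398%. The patterns of macrophage enhancers had the opposite order. AP-1 was present in 3.33% of the promoters against 21.3% of distal regions, C/EBP in 4.38% against 16.0%, PU.1 in 2.92% against 11.7%, GATA in 0.824% against 3.30% and ISRE in 1.27% against 3.21%. The KLF box, with 3.0% against 4.19%, and CTCF, with 0.478% against 0.875%, differed less. Base composition moved with this order. The patterns that contain a CpG were all more frequent in promoters than in distal regions, as were the CCAAT box, YY1 and ZNF143/THAP11, which contain none, and the part of base composition was not tested.

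All coding promoters could be compared with the members only in windows at the TSS, 100 bp to either side and with 1 promoter per gene, and the 5918 members are among these 18246 promoters. In these windows the GC box was present in 32.5% of the members against 19.6% of all promoters, the CCAAT box in 9.04% against 5.93%, ETS in 7.94% against 4.08% and YY1 in 5.07% against 2.84%. The CCAAT box was thus less frequent at the TSS than at the summit of the members, and YY1 more frequent. NRF1 had 4.44% against 2.60%, CRE 3.23% against 1.95%, the E-box 3.72% against 2.15%, E2F 3.50% against 2.02%, the CGCG element 1.66% against 0.822% and ZNF143/THAP11 0.422% against 0.291%. The enhancer patterns were less frequent in the members than in all promoters, with 2.20% against 3.97% for AP-1, 3.46% against 5.38% for C/EBP, 0.625% against 1.29% for GATA and 1.33% against 1.78% for ISRE. PU.1, with 2.06% against 2.32%, differed little. The TATA box had 2.50% against 8.39%, the KLF box 2.25% against 2.44% and CTCF 0.389% against 0.263%.

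**Figure D3:**
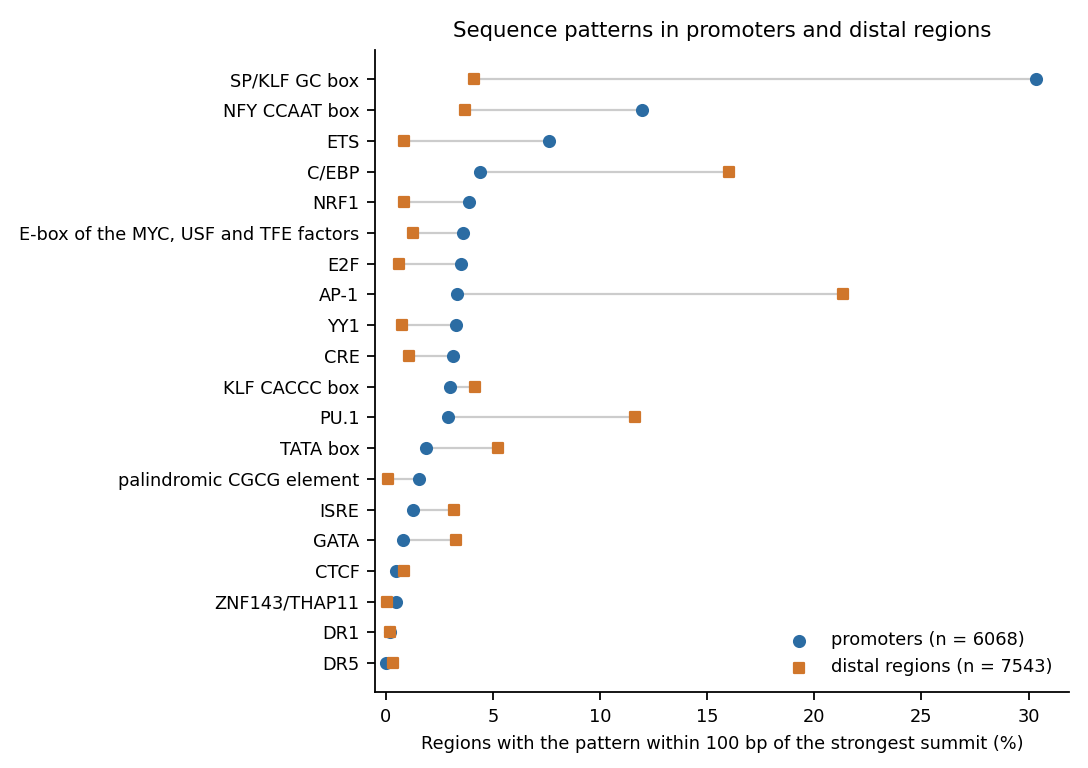
Share of regions that hold each pattern within 100 bp of the strongest summit, in percent, for the promoters (circles, n = 6068) and the distal regions (squares, n = 7543) called in all 4 libraries. The GC box is in 30.4% of the promoters and 4.11% of the distal regions, and AP-1 in 3.33% and 21.3%.

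Within the members, CpG-poor promoters carried more of the enhancer patterns than CpG-rich ones. PU.1 was present in 7.97% of CpG-poor and 1.97% of CpG-rich promoters, AP-1 in 9.54% and 2.17%, C/EBP in 9.64% and 3.40%, GATA in 2.31% and 0.548% and ISRE in 3.46% and 0.860%. ETS had 2.1% and 8.64%, NRF1 0.943% and 4.44% and the GC box 14.2% and 33.4%. The CCAAT box was present in 13.7% and 11.6% of them, the smallest relative difference of these patterns.

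Several patterns had a preferred place relative to the TSS, with a broad spread around it. In windows of 200 bp on either side, with the TSS base as 0, matches of the CCAAT box had a median position of −63 with quartiles of −104.5 and −30, and 89.1% lay upstream. The GC box and NRF1 both had a median of −43, CRE of −40 and ZNF143/THAP11 of −92. ETS lay closest to the TSS from upstream, at a median of −14 with quartiles of −51.5 and 12. YY1 was the exception, with a median of +29, quartiles of 10 and 66.75, and 77.6% of its matches on the sense strand, as in the Eci1 sequence above. Promoters called in no library by the rule had medians of −56 for the CCAAT box, −43 for the GC box and −28.5 for NRF1. Their medians were −40.5 for CRE, −100 for ZNF143/THAP11, −7 for ETS and +49 for YY1 (56.9% sense). The side of the TSS was thus not particular to the members. The TATA box was rare in these promoters. It was found in 4.70% of them within 200 bp of the TSS, against 22.2% of the promoters called in no library by the rule. Within 100 bp these were 2.50% and 13.8%, and 12.8% of the uncalled promoters when olfactory and vomeronasal receptors were left out, a choice made after seeing the data. Of its matches in the members, 20.1% lay 20 to 40 bp upstream, with a median of −29. In the uncalled promoters these were 23.8% and −32. Without the receptor genes, the uncalled promoters had 10.3% with a GC box, 1.71% with PU.1, 4.99% with AP-1 and 6.58% with C/EBP within 100 bp of the TSS.

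**Figure D4:**
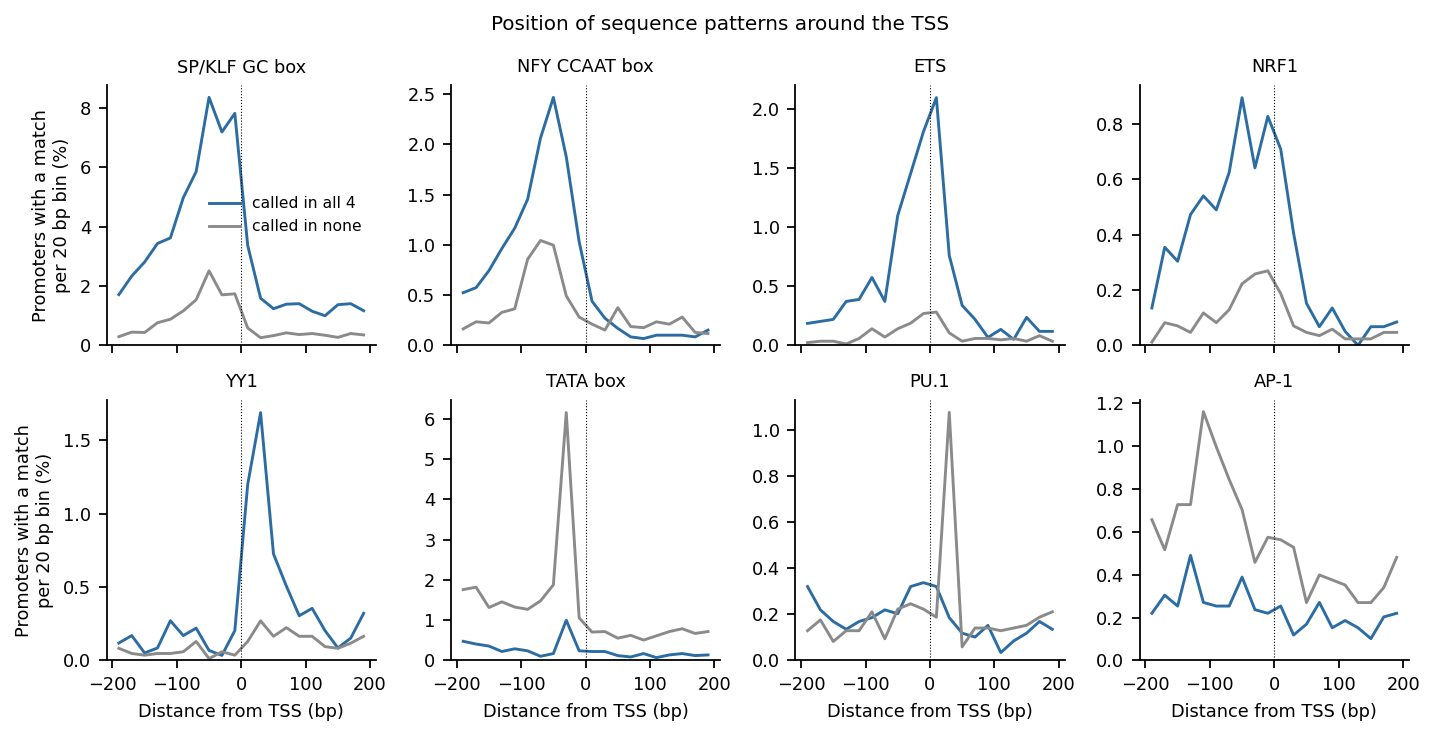
Share of promoters with a match per bin of 20 bp, in percent, by distance from the TSS in bp, for the promoters called in all 4 libraries and for coding promoters called in none. CCAAT boxes lie upstream at a median of −63 bp in the members, YY1 lies downstream at +29 bp, and the TATA box is more frequent in the uncalled promoters.

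The targeted genes were examined first in the comparison of genotypes. The Rxra promoter (chromosome 2, 27676693 to 27677342) was at 6.43 and 5.77 in fold enrichment in Rxrab fl/fl against 10.4 and 7.27 in LysMCre+ Rxrab fl/fl. Its pileup was 40 and 17 against 128 and 80 tags. The change in log2 fold enrichment was 0.15 (standard error 0.26, adjusted p = 0.762, limma) and that of the pileup 1.09 (standard error 0.33, adjusted p = 0.0592, limma), and neither passed the threshold. Rxrb has a divergent neighbour and is no member. Its promoter had 8.36 and 5.71 against 7.17 and 4.79, with a change of −0.60 (standard error 0.22, adjusted p = 0.150, limma). A peak at the start of the gene says nothing of the floxed exons, so these values do not check the genotypes.

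Few promoters differed between the genotypes in fold enrichment. The change is given throughout as LysMCre+ Rxrab fl/fl minus Rxrab fl/fl on the log2 scale, with each library centred on its median over the 15199 regions called in all 4, and was tested with limma across all of these regions (called at a Benjamini-Hochberg adjusted p below 0.05 with a log2 change beyond 1). Of the 6068 promoters, 4 were higher in Rxrab fl/fl against 0 in LysMCre+ Rxrab fl/fl, where 0.0461% and 0.0395% of all regions tested were called in these directions. At an unadjusted p under 0.05 there were 961 (15.8%) and 264 (4.35%) promoters, beside 13.1% and 8.87% of all regions. After centring, both Rxrab fl/fl libraries lay above both LysMCre+ Rxrab fl/fl libraries at 2525 promoters (41.6%, against 32.9% of all regions), and below both at 934 (15.4%, against 22.3%). The median change of the promoters was −0.17, with quartiles of −0.39 and 0.066 and 68.8% of them below 0, against −0.09 over all regions and 0.01 over distal regions. The median standard error of 1 promoter was 0.217. These values cover only regions with a peak in every library, Rxrab fl/fl replicate 3 included. The 2555 promoters missed in that library alone were not tested. Their median fold enrichment was 7.10 in Rxrab fl/fl replicate 1 against 10.1 and 7.80 in LysMCre+ Rxrab fl/fl. For the members these were 16.5 against 16.2 and 12.7. The part of this filter in the changes was not tested. The size of the median change depended on the scaling. It was −0.28 when libraries were centred on the distal regions and −0.11 after quantile normalization. It was −0.25 without Rxrab fl/fl replicate 1 and −0.09 without Rxrab fl/fl replicate 3.

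On the summit pileup, more promoters passed. Of 6066 tested (the pileup could not be solved for 2), 284 (4.68%) were higher in Rxrab fl/fl and 63 (1.04%) in LysMCre+ Rxrab fl/fl, against 4.98% and 2.49% of all 15196 regions tested. The promoters' share towards Rxrab fl/fl was thus near that of all regions, and their share towards LysMCre+ Rxrab fl/fl was below it. The median change of the pileup was −0.19, against −0.10 over all regions. Promoters missed in Rxrab fl/fl replicate 3 alone are again left out. Their median pileup was 31 tags in Rxrab fl/fl replicate 1 against 46 and 31 in LysMCre+ Rxrab fl/fl. The members had 124 against 118 and 72 tags. The part of this filter in the counts was not tested. Of the 347 promoters called on the pileup, 342 had the same sign in fold enrichment, and 1, Marf1, was called on both measures. Both measures rest on the same tags at the summit, so the shared sign is no independent support.

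Of the 4 promoters called on fold enrichment, those of Id3, Marf1 and Rps6ka1 are described, each with an adjusted p of 0.0449 (limma). Id3, an inhibitor of basic helix-loop-helix factors, had 19.2 and 15.7 in Rxrab fl/fl against 8.69 and 6.74 in LysMCre+ Rxrab fl/fl, a change of −1.55 (standard error 0.24). The groups did not overlap, and the gap between them was larger than the spread within each. Its pileup was 232 and 61 against 244 and 169 tags, with a change of −0.09 (adjusted p = 0.804, limma), and its local background was 11.2 and 2.96 against 27.2 and 24.2 tags. At Id3 the background thus differed between the genotypes more than the tags at the summit did. Rps6ka1, the kinase RSK1, had 8.18 and 4.37 against 3.35 and 3.01, a change of −1.28 (standard error 0.21). Its pileup of 71 and 15 against 36 and 33 tags did not pass (change −0.79, adjusted p = 0.0636, limma). The Rps6ka1 call was lost after quantile normalization (adjusted p = 0.0618, limma), with a mean-variance trend (0.126) and without LysMCre+ Rxrab fl/fl replicate 1 (0.141) or replicate 2 (0.056), and over all its alternatives the adjusted p ran from 0.000495 to 0.141. Marf1, a regulator of meiosis and mRNA stability, had 15.2 and 11.2 against 6.42 and 6.14, a change of −1.43 (standard error 0.23). It was the only one of the 4 also called on the pileup, with 202 and 45 against 57 and 35 tags, a change of −1.96 (standard error 0.22, adjusted p = 0.0183, limma). In fold enrichment the Marf1 call was lost after quantile normalization (adjusted p = 0.0524, limma) and without LysMCre+ Rxrab fl/fl replicate 1 (0.0951), and its alternatives ran from 0.000112 to 0.0951. The Id3 call held under every alternative in fold enrichment and was lost on the pileup alone.

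Towards LysMCre+ Rxrab fl/fl, 0 promoters passed on fold enrichment, and the 3 with the smallest p are given. Il27ra, the receptor subunit for interleukin 27, had 9.05 and 5.26 in Rxrab fl/fl against 20.6 and 16.4 in LysMCre+ Rxrab fl/fl, a change of 1.04 (standard error 0.21, adjusted p = 0.0562, limma). Acadvl, the very long chain acyl-CoA dehydrogenase of mitochondria, had 10.1 and 4.47 against 18.7 and 16.3, a change of 1.01 (adjusted p = 0.0611, limma). Nxph3, a ligand of neurexins, had 8.72 and 4.17 against 19.4 and 12.4, a change of 0.99 (adjusted p = 0.0629, limma). At each of them both LysMCre+ Rxrab fl/fl libraries lay above both others. On the pileup, Il27ra and Acadvl passed, with changes of 1.36 (adjusted p = 0.0228, limma) and 1.11 (adjusted p = 0.0242, limma), and Nxph3, with 0.93, stayed under the fold threshold.

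The largest pileup changes towards Rxrab fl/fl were at Clca4b, of the family of chloride channel accessory proteins, with 90 and 34 tags against 19 and 22 (change −2.30, standard error 0.36), at Marf1, at Srfbp1, a partner of serum response factor, with 111 and 22 against 33 and 17 (−1.93, standard error 0.23), at Actr10, a dynactin subunit, with 81 and 23 against 21 and 24 (−1.81, standard error 0.31), and at Mrps14, a mitochondrial ribosomal protein, with 272 and 67 against 100 and 54 (−1.74, standard error 0.23). In raw tags only Clca4b kept both Rxrab fl/fl libraries above both others, and the test was run on scaled values, as Rxrab fl/fl replicate 3 had a promoter median of 26 tags against 72 to 124 in the others. The largest towards LysMCre+ Rxrab fl/fl were at Def6, a guanine nucleotide exchange factor of immune cells, with 63 and 15 tags against 204 and 148 (1.63, standard error 0.22), at Aanat, an enzyme of melatonin synthesis, with 39 and 12 against 131 and 102 (1.55, standard error 0.26), at Cacna1a, a neuronal calcium channel, with 102 and 17 against 328 and 149 (1.54, standard error 0.26), at Tet3, which oxidises methylcytosine, with 138 and 20 against 332 and 227 (1.52, standard error 0.25), and at Lgals3bp, the galectin-3-binding protein, with 108 and 17 against 261 and 191 (1.52, standard error 0.24). The adjusted p of these 10 was 0.0183 to 0.0198 (limma). In fold enrichment they changed in the same direction by −1.43 to −0.79 and by 0.12 to 0.77. The regions of Clca4b, Aanat and Cacna1a have their midpoints at −670, −992 and −900 bp from the TSS, away from the usual place of a promoter peak. The Clca4b and Aanat regions were CpG-poor, with a GC content of 46.3% and 53.3%.

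**Figure D5:**
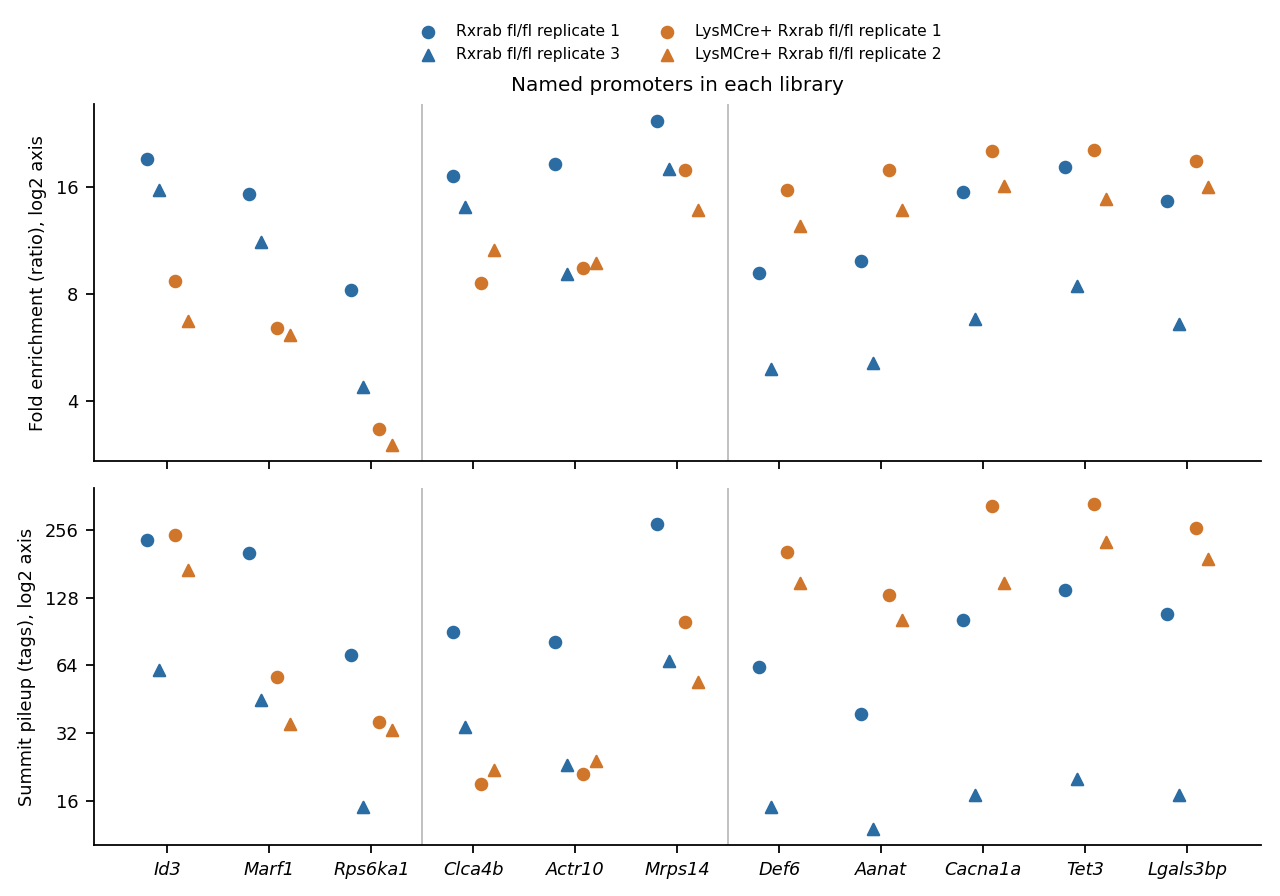
Fold enrichment (top) and summit pileup in tags (bottom) of named promoters in each of the 4 libraries, on log2 axes, with a marker for each library and no mean or error. Id3 differs between genotypes in fold enrichment (19.2 and 15.7 against 8.69 and 6.74) and did not pass in pileup, and Marf1 passed in both.

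The change went with base composition. CpG-rich promoters had a median change of −0.20 in fold enrichment and of −0.23 in pileup, and CpG-poor promoters of −0.02 and 0.08. The CpG-rich median stayed below 0 under both other scalings and without each library, from −0.30 to −0.11, whereas the CpG-poor median changed sign between them, from −0.13 to 0.05. Of the CpG-rich promoters, 5.30% were called higher in Rxrab fl/fl on the pileup against 0.743% in LysMCre+ Rxrab fl/fl. Of the CpG-poor ones, these were 1.36% and 2.62%, the reverse order. Of the 284 promoters higher in Rxrab fl/fl 95.4% were CpG-rich, and of the 63 higher in LysMCre+ Rxrab fl/fl 60.3%, against 84.3% of all members. Def6, Aanat and Lgals3bp, with CpG ratios of 0.351, 0 and 0.133, were CpG-poor, and Tet3 and Cacna1a, with 0.662 and 0.816, CpG-rich. With the promoters in 5 equal groups by GC content, the median change in fold enrichment went from −0.07 in the lowest group to −0.27 in the highest. The gap in log2 fold enrichment between CpG-rich and CpG-poor promoters was 0.29 and 0.35 in Rxrab fl/fl against 0.09 and 0.02 in LysMCre+ Rxrab fl/fl. The genotypes did not overlap, which was not tested, as an exact permutation test of 2 against 2 libraries cannot give a p below 0.333. The gap is a difference within each library, so centring does not change it, whereas quantile normalization can. Its part in the calls was not tested. Width and position moved with the change too. The median change was −0.10 in the narrowest of 5 equal groups and −0.29 in the widest, and −0.30 for midpoints between 200 and 500 bp upstream against −0.10 for those between 50 and 200 bp downstream.

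The calls by pattern are to be read beside the 4.68% of all members called higher in Rxrab fl/fl on the pileup and the 1.04% called higher in LysMCre+ Rxrab fl/fl (4.98% and 2.49% of all regions), and many of the counts are small. By pattern, the median pileup change was −0.36 for the 462 promoters with ETS, of which 36 were called higher in Rxrab fl/fl against 2 in LysMCre+ Rxrab fl/fl. It was −0.39 for the 236 with NRF1 (21 and 1 called) and −0.45 for the 93 with the CGCG element (11 and 0), patterns that contain CpG. For the 725 promoters with a CCAAT box, which were the more accessible ones with a median mean fold enrichment of 15.8, it was −0.09 (16 and 7), and for the 177 with PU.1 it was −0.11 (3 and 2). The shares called higher in Rxrab fl/fl were 7.79% for ETS, 8.90% for NRF1 and 11.8% for the CGCG element, above that of all members, and 2.21% for the CCAAT box and 1.69% for PU.1, below it. The 29 promoters with CTCF were the only group of these with a positive median, 0.13 in fold enrichment and 0.16 in pileup (0 and 2 called). DR1 and DR5, the element spacings read by RXR dimers and by RAR with RXR, were rare. At the summit, DR1 was present in 11 promoters (0.181%, against 0.212% of distal regions), and at the TSS in 0.118% of the members and 0.110% of all promoters. Of the 11, 3 were called higher in Rxrab fl/fl against 0 in LysMCre+ Rxrab fl/fl. The most accessible of them were Pold1, a DNA polymerase subunit, with a pileup of 280 and 63 against 140 and 82 tags (change −1.18, adjusted p = 0.0217, limma), and Rpl34, with 160 and 31 against 80 and 40 (−1.18, adjusted p = 0.0242, limma). DR5 was present in 1 promoter, that of Rarb, a retinoic acid receptor gene, against 0.345% of distal regions. Rarb had a fold enrichment of 16.0 and 10.0 against 12.4 and 12.9 (change −0.37, adjusted p = 0.344, limma) and did not pass on the pileup (−0.55, adjusted p = 0.212, limma).

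None of the 7 gene lists had a promoter called on fold enrichment. The 22 promoters of macrophage transcription factors had a median change of −0.44 in fold enrichment and −0.25 in pileup, with 0 called on the pileup. Spi1, which encodes PU.1, had 12.9 and 4.83 in Rxrab fl/fl against 15.4 and 13.8 in LysMCre+ Rxrab fl/fl (adjusted p = 0.209, limma), and Cebpa 20.1 and 12.2 against 15.0 and 11.8 (adjusted p = 0.133, limma). The 28 promoters of nuclear receptors and coregulators had medians of −0.39 and −0.22, with 2 called on the pileup and higher in Rxrab fl/fl. These were Pparg, with 62 and 14 against 24 and 26 tags (adjusted p = 0.0380, limma), and Nr1h2 (LXRβ), with 60 and 16 against 37 and 12 (adjusted p = 0.0331, limma). Both encode known partners of RXR, as do other genes of the list that were not called, such as Rara and Rarb. At Pparg and Nr1h2 the unscaled tags of the genotypes overlap. The 18 promoters of lysosome and autophagy genes had medians of −0.34 and −0.32 with 2 called, and the 27 of immediate early and stress genes −0.42 and −0.36 with 2 called, all higher in Rxrab fl/fl. For these lists the fold enrichment median stayed below 0 with both other scalings and without each library, between −0.74 and −0.16 for the immediate early and lysosome lists and between −0.68 and −0.24 for the transcription factors and nuclear receptors. The median change in fold enrichment was −0.09 over all regions, −0.17 over all the promoters and −0.20 over the CpG-rich ones. Most promoters of the lists above were CpG-rich. The share called on the pileup towards Rxrab fl/fl was 4.98% of all regions and 4.68% of all members.

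The 11 promoters of LPM genes had a median change of −0.35 in fold enrichment and of −0.84 in pileup, with 3 called on the pileup. The fold enrichment median was −0.13 without Rxrab fl/fl replicate 3 and −0.55 without Rxrab fl/fl replicate 1, and below 0 under both other scalings. Fn1, fibronectin, had 226 and 47 tags in Rxrab fl/fl against 95 and 66 in LysMCre+ Rxrab fl/fl, a change of −1.25 (adjusted p = 0.0199, limma). F10, coagulation factor X, had 458 and 102 against 206 and 151 (−1.16, adjusted p = 0.0222, limma). Thbs1, thrombospondin 1, had 185 and 49 against 72 and 68 (−1.31, adjusted p = 0.0248, limma). At all 3 the unscaled tags of the genotypes overlap, and the test was run on scaled values. Gata6 had fold enrichments of 11.3 and 7.61 against 5.80 and 8.61 (−0.76, adjusted p = 0.148, limma) and 87 and 20 against 25 and 46 tags (−1.16, adjusted p = 0.0915, limma), and passed on neither. Adgre1 had 94 and 26 against 45 and 56 tags (−0.84, adjusted p = 0.109, limma). Of the list, 9 of 11 were below 0 in fold enrichment and 10 of 11 in pileup, beside 68.8% and 63.9% of all the promoters. The list was chosen with earlier results of these data known, and the study singled out some of its genes on these samples. Its counts are a description and no independent test. Among the families, the 43 promoters of cytosolic ribosomal proteins had a median pileup change of −0.57, with 8 called higher in Rxrab fl/fl against 1 in LysMCre+ Rxrab fl/fl, and the 30 of Rab GTPases −0.30, with 5 and 1. In fold enrichment these medians were −0.29 and −0.35. The Zfp series had −0.19 in pileup and −0.03 in fold enrichment, with 4 and 0 of 170 called, and Mediator subunits −0.05 and 0.12. Of the 23 families, the ribosomal proteins and the Rab GTPases had the most promoters called higher in Rxrab fl/fl. On the pileup, 4.68% of all members and 4.98% of all regions were called in this direction. Towards LysMCre+ Rxrab fl/fl these shares were 1.04% and 2.49%.

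Regions lay close to the limits of the rule on both sides. The midpoints nearest to the edges of the window were those of Tlcd3b, 1000 bp upstream, and Use1, 200 bp downstream. Tlcd3b had fold enrichments of 7.90 and 4.96 in Rxrab fl/fl against 13.6 and 13.4 in LysMCre+ Rxrab fl/fl. Use1 had 7.0 and 4.36 against 5.95 and 5.59. The 5th percentiles of the promoters were 7.95 and 4.85 against 7.78 and 6.13. Use1 lay below them in every library, and Tlcd3b in Rxrab fl/fl replicate 1 alone. Just outside lay Olfr433, at −1010 bp, with 9.17 and 7.77 against 7.41 and 8.39, and Abcc5, 201 bp downstream, with 11.0 and 6.12 against 15.5 and 12.5. The weakest calls were in Rxrab fl/fl replicate 3, at Cd93 and Irx2, where the −log10 of the q value was 2.04 and 2.12. The lowest such values in the other libraries were 4.27 in Rxrab fl/fl replicate 1 and 4.43 and 2.88 in LysMCre+ Rxrab fl/fl.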

How the data were processed

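ATAC-seq peak lists of 4 libraries were used. According to the submitters' processing notes and the methods of the study, the authors trimmed reads (cutadapt 1.7), aligned them to mm10 (Bowtie2), removed duplicates, low quality, mitochondrial and sex chromosome reads (SAMtools 0.1.18), called peaks in each library by itself with MACS2 2.1.1 (200 bp extension, q value under 0.05) and removed blacklisted regions (bedtools 2.24.0). The deposited lists hold a fold enrichment (a ratio over the local background), p-values and q-values as −log10, a summit offset in bp from the peak start, and a display score that was not used. Depth is not given and read counts were not analysed here, so that no count test was run. The summit pileup was solved from fold enrichment and p-value with a pseudocount of 1, within 0.1 of 1 tag. Regions were merged and annotated with RefSeq GRCm38.p6 in Python 3.11.15 (pysam 0.24.0). Log2 values of the 15199 regions called in all 4 libraries, centred on the median of each library, were tested with limma 3.58.1 in R 4.3.3, after a check on simulated data. Only called peaks enter, so values start from the calling threshold. The members and gene lists were chosen with earlier results of these data known. Promoters were named by fixed rules: the targeted genes, the called promoters and those with the smallest p, the largest pileup changes, the highest and lowest levels, the most accessible promoter with each pattern, list and family members, and the edges of the rule. Further list members (such as Fn1, Thbs1, F10, Pparg, Nr1h2, Spi1 and Adgre1) were named after their values were seen. Alternatives changed the peak threshold and number, the window, the scaling, the measure and the libraries. A choice of any clean TSS and the removal of receptor genes from the uncalled promoters were added after seeing the data. A few genes are not reported here.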

Additional observations from a re-analysis of the deposited data

How the results depend on the processing

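The number of promoters (6068) stayed within 1.5 times under every alternative run, from 4686 with the same number of peaks per library to 8626 without Rxrab fl/fl replicate 3, and from 6075 upwards with a library left out. The calls did not. Promoters higher in Rxrab fl/fl numbered 4 as reported, 14 with the same number of peaks per library, 284 on the summit pileup, 1 after quantile normalization, 14 with centring on the distal regions and 40 with a mean-variance trend. Leaving out a library gave 3 to 254, with 254 without Rxrab fl/fl replicate 1 and 13 without Rxrab fl/fl replicate 3. A genotype then has 1 library, which is assumed to vary like the others. Promoters higher in LysMCre+ Rxrab fl/fl numbered 0 as reported, 2 with the same number of peaks, 63 on the pileup, 4 with the trend, 4 in the upper part of the regions by level and 0 to 55 with a library left out (55 without Rxrab fl/fl replicate 1, 8 without replicate 3). The median change was −0.11 after quantile normalization, −0.28 with distal centring and −0.25 to −0.090 with a library left out. The promoter over distal difference kept its direction throughout, from −0.28 to −0.19 with a library left out. The causes were not tested. No paired analysis was possible because the genotypes share only replicate number 1. Unknown depth and 2 libraries per genotype limit all of these values.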
